A study of Homo sapiens with 8 samples.

Results

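The expression of Krüppel-like factor genes was described from Affymetrix gene arrays of HCT116, an established colorectal cancer cell line of human origin. The genes were taken by annotated symbol, as probe sets paired with KLF2, KLF3, KLF4, KLF5, KLF6, KLF7, KLF9, KLF10, KLF11 or KLF13, which gave 10 genes out of 18417 measured. Of these, 9 had 1 probe set, and KLF13 had 2. One line carried a control hairpin (shControl), the other a hairpin that targets CDK8 (shCDK8), the catalytic subunit of the Mediator kinase module. Both had been without serum for 40 h and were taken then, or once 10% fetal bovine serum had been present for 30 min, giving 4 groups of 2 arrays, 8 in all. Each arm had a single hairpin, so the knockdown cannot be told apart from anything else in which the lines differed, and all 4 groups had gone through starvation. Whether duplicates came from separate cultures is not stated, so p-values measure only the spread among these samples, possibly a technical one.

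Krüppel-like factors are transcription factors that share a block of zinc fingers at the C-terminus and bind GC-rich and CACCC sequences. KLF2, KLF4, KLF5, KLF6 and KLF7 are known mainly as activators, KLF9, KLF10, KLF11 and KLF13 bind the corepressor Sin3A, and KLF3 binds the corepressor CtBP. In the intestine KLF5 marks proliferating crypt cells and KLF4 the differentiated surface epithelium, and several family genes are known as early targets of growth factor or TGF-beta signalling.

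The probe set that represents CDK8, which is also paired with ADRA1B, was 4.53-fold lower in starved shCDK8 than in starved shControl cells (log2 -2.18 ± 0.07 SE) and 4.45-fold lower after serum. The correlation of duplicates across genes was 0.997 to 0.998. The epithelial markers EPCAM and KRT8 were high on every array, between 11.68 and 11.83 and between 12.24 and 12.74 on the log2 scale. They stood at percentiles 99.4 and 99.8 of mean level over all genes. The intestinal factors CDX1 and CDX2 lay at percentiles 54.5 and 67.5, and the colonic differentiation markers LGALS4, VIL1 and CEACAM5 at 36.3, 25.9 and 18.6. The 7 measured blood and endothelial markers ran from percentile 2.4 (PTPRC) to 32.8 (CD14), so their range took in VIL1 and CEACAM5. The 7 mesenchymal markers ran from 0.7 (LUM) to 70.5 (COL1A1). COL1A1 thus lay above both CDX1 and CDX2, and ACTA2, at 61.1, above CDX1. Different probe sets are not calibrated against each other, and no detection call was used. All values below are log2 probe set levels or differences of them, with n = 2 arrays per group. A gene is said to have risen or fallen, or to be higher or lower between the lines, where limma's Benjamini-Hochberg adjusted p over all 18417 genes was below 0.05. Fewer cells with a transcript and less transcript per cell cannot be told apart in such bulk RNA.

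Serum raised KLF6 in both lines, KLF10 in shControl cells and KLF4 in shCDK8 cells, and between the lines KLF4 and KLF6 were higher in shCDK8 cells at both times. The remaining genes moved less. In shControl cells 2 of the 10 genes rose with serum, where 0.424% of all genes rose, and none fell, where 0.038% did. In shCDK8 cells 2 of 10 rose, where 0.25% of all genes did, and none fell, where 0.00543% did. Without regard to the test, 6 of 10 genes in shControl cells had both serum arrays above both starved arrays, where 16.2% of all genes did, and 1 had them below, where 23.5% did. In shCDK8 cells 7 of 10 were above, where 19.1% of all genes were, and 1 below, where 22.2% were. Both lines had the serum arrays above for KLF2, KLF4, KLF6 and KLF10, 4 of 10 where 6.4% of all genes were so placed, and below for KLF9, 1 of 10 where 7.48% were. The median change with serum over the 10 genes was 0.16 in shControl and 0.15 in shCDK8 cells, beside -0.01 over all genes in each. In the average of both lines 3 of 10 rose, KLF4, KLF6 and KLF10, where 0.684% of all genes rose, and none fell, where 0.076% did.

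**Figure D1:**
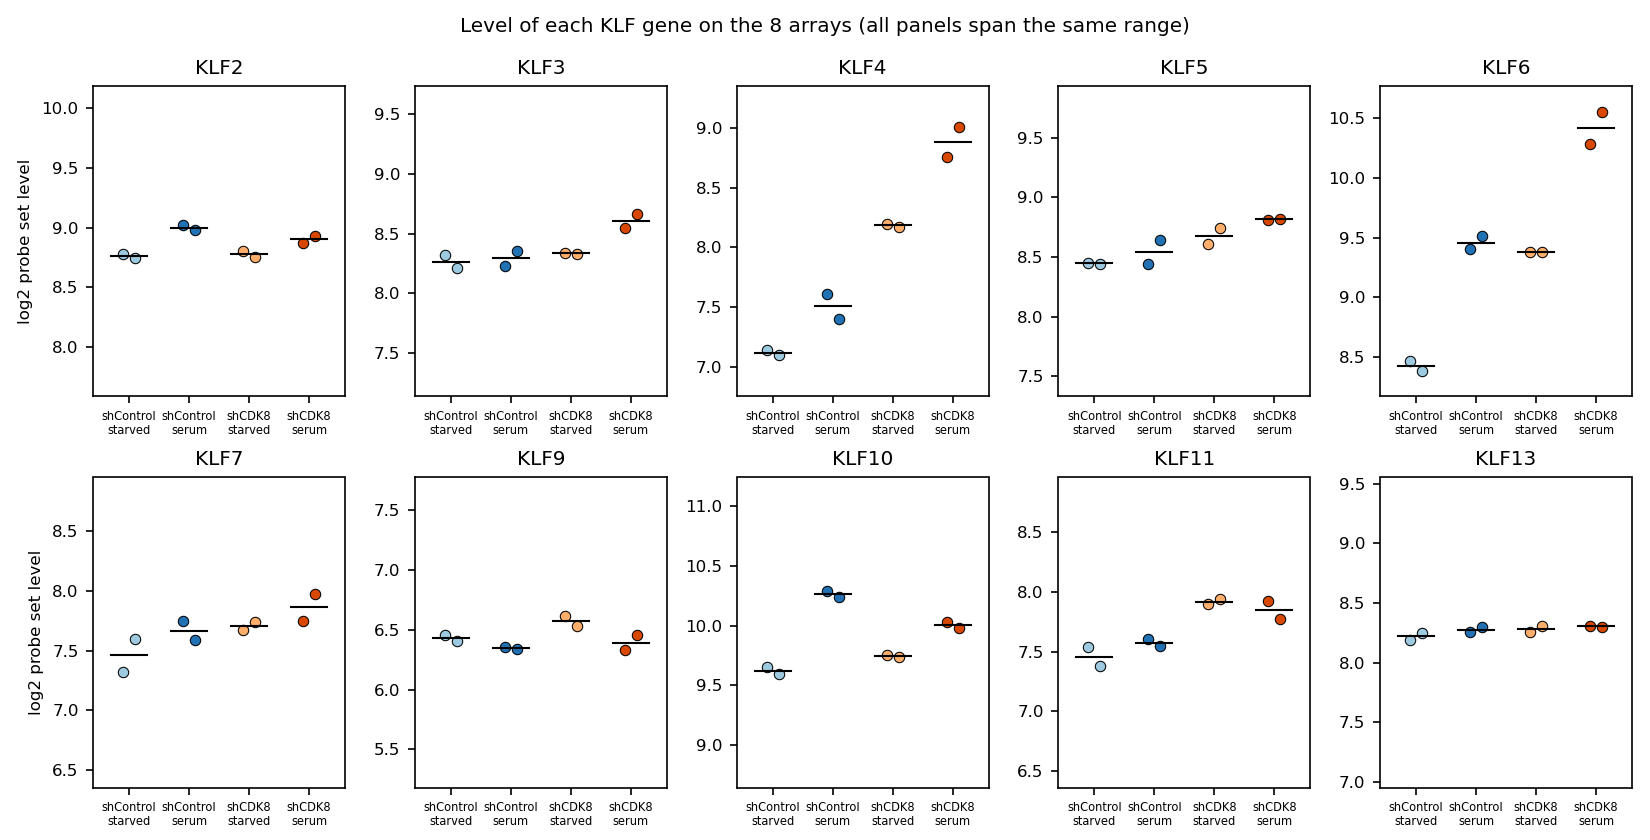
Log2 probe set level (y axis) of each KLF gene in the 4 groups (x axis), with a point per array and a bar at the group mean; each panel spans the same range of log2 units around its own centre. KLF6 and KLF4 cover the widest ranges, 1.99 and 1.77 between their lowest and highest group means, and KLF13 the narrowest, 0.08.

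KLF6, a ubiquitously expressed activator and immediate-early gene, is measured by probe set 7931810 on chromosome 10. It read 8.47 and 8.38 on the starved shControl arrays, 9.40 and 9.51 on the serum-treated shControl arrays, 9.38 on both starved shCDK8 arrays, and 10.28 and 10.56 on the serum-treated shCDK8 arrays. Every serum array lay above every starved array of its line, and every shCDK8 array above every shControl array of its time. Serum raised it 2.04-fold in shControl cells (log2 1.03 ± 0.09 SE, adjusted p = 6.59e-04) and 2.06-fold in shCDK8 cells (1.04 ± 0.09, adjusted p = 7.46e-04). The difference between these responses was 0.01, with a 95% interval from -0.28 to 0.30. Starved shCDK8 cells thus stood close to serum-treated shControl cells, with a gap of 0.08 that was smaller than the standard error of a difference between group means. All 15 alternatives kept both serum calls.

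KLF4, a factor of differentiated intestinal epithelium with activating and repressing functions, is measured by probe set 8163002 on chromosome 9. It read 7.14 and 7.10 in starved and 7.61 and 7.40 in serum-treated shControl cells, then 8.19 and 8.18 in starved and 8.76 and 9.01 in serum-treated shCDK8 cells. The arrays of the 4 groups did not overlap, and the order ran from starved shControl through serum-treated shControl and starved shCDK8 to serum-treated shCDK8 cells. With serum it rose 1.62-fold in shCDK8 cells (0.70 ± 0.10 SE, adjusted p = 0.0183), and it changed by 0.39 ± 0.10 in shControl cells (adjusted p = 0.235). The difference of the responses was 0.31 ± 0.13 (unadjusted p = 0.0449, adjusted p = 1.00 in limma's test), so the responses were not shown to differ. The call in shCDK8 cells ended without starved array 1 of that line (0.71, adjusted p = 0.172), without its starved array 2 (0.69, adjusted p = 0.176), without its serum array 2 (0.58, adjusted p = 0.157) and when shCDK8 arrays were fitted by themselves (adjusted p = 0.0589). The rise averaged over both lines was 0.54 ± 0.07 (adjusted p = 0.00430) and passed under all 14 alternatives.

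The other activator genes changed less with serum. KLF2, an endothelial and lymphocyte regulator induced through ERK5 and MEF2, read 8.78 and 8.75 in starved and 9.02 and 8.98 in serum-treated shControl cells, against 8.80 and 8.76, then 8.87 and 8.93, in shCDK8 cells. Its serum arrays lay above its starved arrays in both lines, but the changes of 0.24 ± 0.06 (adjusted p = 0.301) and 0.12 ± 0.06 (adjusted p = 0.577) did not pass. The average of both lines, 0.18 ± 0.05 (adjusted p = 0.160), passed only with an intensity trend (adjusted p = 0.0475). KLF5, the crypt-cell factor, moved with serum by 0.10 and 0.14, and KLF7, a broadly expressed factor known in neurons, by 0.21 and 0.15, none past the threshold. KLF7 also had the widest duplicates among the starved shControl arrays, at 7.32 and 7.60.

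Among the genes whose proteins bind Sin3A, KLF10, a TGF-beta-inducible early gene, is measured by probe set 8152215. It read 9.65 and 9.59 in starved and 10.29 and 10.24 in serum-treated shControl cells, and 9.75 and 9.74, then 10.03 and 9.98, in shCDK8 cells. No 2 groups overlapped, and the line with the higher reading changed from shCDK8 when starved to shControl after serum. Serum raised KLF10 1.56-fold in shControl cells (0.64 ± 0.06 SE, adjusted p = 0.00141), a call that all 15 alternatives kept. In shCDK8 cells the change was 0.26 ± 0.06 (adjusted p = 0.280), and it passed when the variance prior followed intensity (adjusted p = 0.0210; range over its alternatives up to 0.766). The difference of the responses, -0.38 ± 0.09 with a 95% interval from -0.58 to -0.18, ranked 37 of 18417 genes by its unadjusted p of 0.00194 and did not pass limma's adjusted test (adjusted p = 0.910).

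KLF9, KLF11 and KLF13 did not pass in either serum comparison. KLF9, a hormone-responsive factor, read 6.46 and 6.40 in starved and 6.36 and 6.34 in serum-treated shControl cells. In shCDK8 cells it read 6.62 and 6.53, then 6.33 and 6.45. It was the 1 gene of the 10 whose serum arrays lay below its starved arrays in both lines, by -0.08 ± 0.07 (adjusted p = 0.788) and -0.18 ± 0.07 (adjusted p = 0.489). KLF11, a relative of KLF10 that is also TGF-beta-inducible, moved by 0.12 and -0.07, and KLF13, a factor known from T cells, by 0.06 and 0.02. The corepressor-binding KLF3 moved by 0.03 in shControl and 0.27 ± 0.08 in shCDK8 cells (adjusted p = 0.393), where its serum arrays, 8.55 and 8.66, lay above its starved arrays, 8.34 and 8.33.

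When the responses of the lines were compared directly, no gene of the 10 passed limma's test after adjustment, where 0% of all genes did. At an unadjusted p below 0.05 there were 2 of 10, KLF10 and KLF4, where 3.82% of all genes lay below it. These moved in opposite directions, KLF10 with the smaller and KLF4 with the larger response in shCDK8 cells. The median difference over the 10 genes was -0.04, beside 0.01 over all genes.

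**Figure D2:**
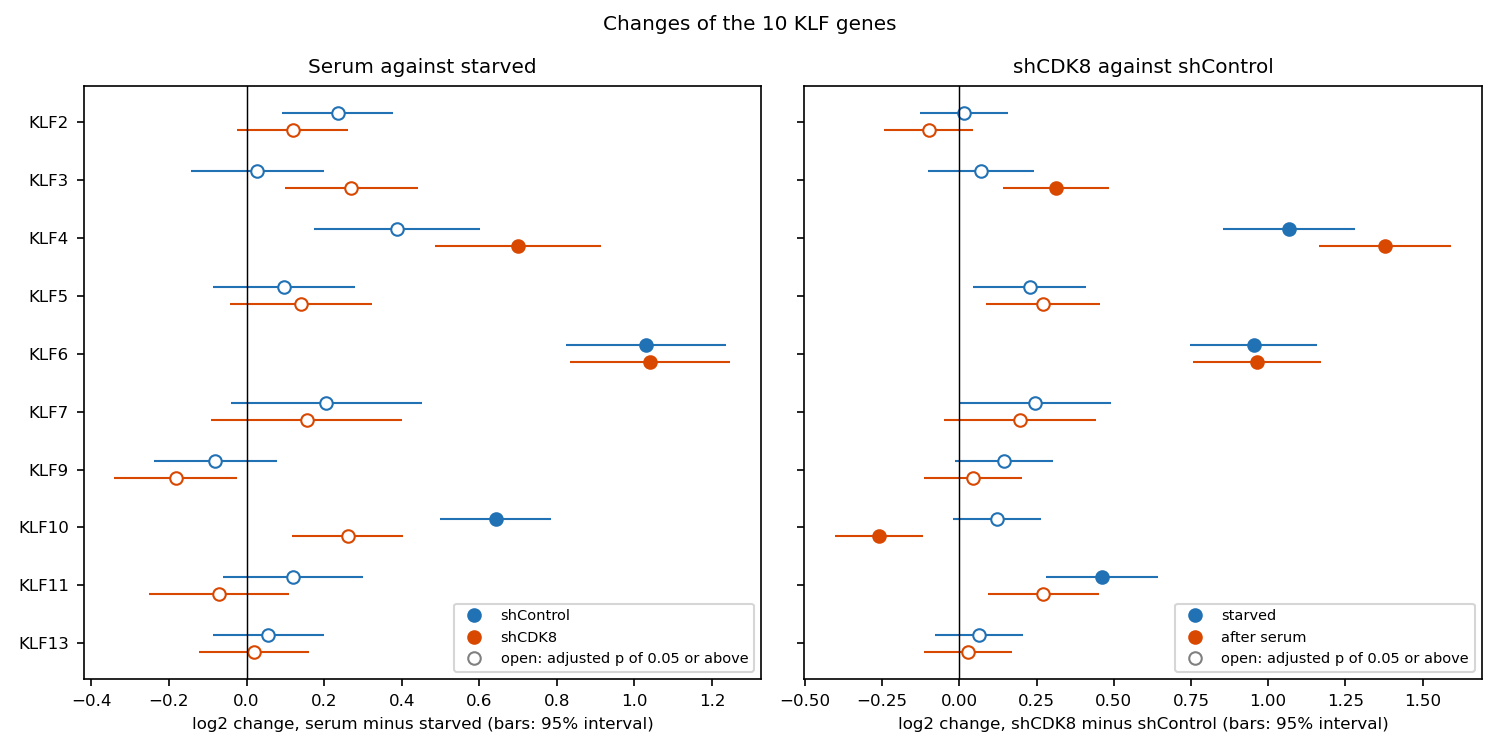
Log2 changes (x axis) of the 10 KLF genes (y axis) with serum in each line (left) and between the lines at each time (right); bars are 95% intervals of the model, filled points have an adjusted p below 0.05. KLF6 moved by 1.03 and 1.04 with serum and differed by 0.95 and 0.96 between the lines, while KLF10 was the 1 gene lower in shCDK8 cells past the threshold, after serum.

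Between the lines, KLF4, KLF6 and KLF11 were higher in starved shCDK8 cells, 3 of 10 genes where 7.13% of all genes were higher, and none was lower, where 6.28% were. After serum KLF3, KLF4 and KLF6 were higher, 3 of 10 where 7.7% of all genes were, and KLF10 was lower, 1 of 10 where 6.54% were. The median line difference over the 10 genes was 0.19 in starved and 0.23 in serum-treated cells, beside -0.01 over all genes at each time. In starved cells the change was above 0 in all 10 genes, where 46% of all genes lay above 0. Both shCDK8 arrays lay above both shControl arrays in 9 genes, where 24.4% of all genes did so, and below in none, where 27.7% did. After serum the change was above 0 in 8 of 10 genes, where 47.9% of all genes lay above 0. The arrays lay above in 6 genes, where 25.9% of all genes did so, and below in 2, where 28% did. The line comparisons share arrays with the serum comparisons.

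KLF4 was 2.10-fold higher in starved shCDK8 cells (1.07 ± 0.10 SE, adjusted p = 8.23e-05) and 2.60-fold higher after serum (1.38 ± 0.10, adjusted p = 1.37e-05). KLF6 was 1.94-fold higher (0.95 ± 0.09, adjusted p = 1.42e-04) and 1.95-fold higher (0.96 ± 0.09, adjusted p = 1.22e-04). All 15 alternatives kept these 4 calls. KLF11 read 7.53 and 7.38 in starved and 7.61 and 7.54 in serum-treated shControl cells, against 7.90 and 7.94, then 7.92 and 7.77, in shCDK8 cells. All shCDK8 arrays thus lay above all shControl arrays. It was 1.38-fold higher in starved shCDK8 cells (0.46 ± 0.08, adjusted p = 0.00443), kept by all 15 alternatives, and differed by 0.27 ± 0.08 after serum (adjusted p = 0.0517). The latter passed under 5 alternatives, among them those without starved array 1 or array 2 of shControl (adjusted p = 0.0462 each).

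KLF3 read 8.32 and 8.21, then 8.23 and 8.36, in shControl cells, and the means of both starved groups and of serum-treated shControl cells lay within 0.07 of each other. It was 1.24-fold higher in shCDK8 cells after serum (0.31 ± 0.08 SE, adjusted p = 0.0235), a call that ended without serum array 1 of shControl (0.25, adjusted p = 0.166) or serum array 2 of shCDK8 (0.25, adjusted p = 0.142). KLF10 was 1.20-fold lower in shCDK8 cells after serum (-0.26 ± 0.06, adjusted p = 0.0236), and differed by 0.12 ± 0.06 in starved cells (adjusted p = 0.274). The call for KLF10 ended without either serum array of shControl (adjusted p = 0.145 for array 1 and 0.0816 for array 2) or of shCDK8 (0.0632 and 0.121).

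KLF5 read 8.45 and 8.44, then 8.44 and 8.64, in shControl cells and 8.61 and 8.74, then 8.81 and 8.82, in shCDK8 cells. The shCDK8 arrays were the higher at each time, by 0.23 ± 0.08 in starved cells (adjusted p = 0.107) and 0.27 ± 0.08 after serum (adjusted p = 0.0554). The starved difference passed with an intensity trend (adjusted p = 0.0420), and the serum difference under 5 alternatives, of which 1 left out serum array 2 of shControl (0.37, adjusted p = 0.0392). KLF2, KLF7, KLF9 and KLF13 did not pass at either time. Their line differences ran from -0.10 for KLF2 after serum to 0.25 for KLF7 in starved cells. KLF13 was the flattest gene, between 8.19 and 8.31 on all 8 arrays, and its second probe set, 7982333, lay between 5.80 and 6.09.

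Averaged over both times, 5 of 10 genes were higher in shCDK8 cells, where 12% of all genes were, and none was lower, where 11.3% were. KLF4 was higher by 1.22 ± 0.07 (adjusted p = 1.41e-06), KLF6 by 0.96 ± 0.07, KLF11 by 0.37 ± 0.06, KLF5 by 0.25 ± 0.06 (adjusted p = 0.0111) and KLF3 by 0.19 ± 0.05 (adjusted p = 0.0295). All 14 alternatives kept these calls except that of KLF3, which ended without serum array 1 of shControl (adjusted p = 0.112), starved array 2 of shControl (0.0955), starved arrays 1 and 2 of shCDK8 (0.0776 and 0.0714) or serum array 2 of shCDK8 (0.0999). KLF7, at 0.22 ± 0.08 (adjusted p = 0.0712), passed with an intensity trend (adjusted p = 0.0325). It also passed without starved array 2 of shControl (0.29) or serum array 1 of shCDK8 (0.28).

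The promoters of the genes that were higher in shCDK8 cells at both times, and of KLF11, are shown because all of these genes were higher in starved shCDK8 cells. With serum KLF6 passed in both lines, KLF4 in shCDK8 cells only and KLF11 in neither line. RefSeq promoter windows of GRCh38.p14, from 250 bases before to 50 after a start site, were examined for 8 of the 10 genes, in 13 windows. Capitals mark matches on either strand to GCGNGGGCG, the site of EGR factors, and to TGACG, the core of the cyclic AMP response element, whose full form TGACGTCA contains it on both strands. The windows are chr10:3785160-3785459 (minus strand) for KLF6, chr9:107489720-107490019 (minus strand) for KLF4 and chr2:10043971-10044270 (plus strand), the second of 2 windows, for KLF11.
KLF6: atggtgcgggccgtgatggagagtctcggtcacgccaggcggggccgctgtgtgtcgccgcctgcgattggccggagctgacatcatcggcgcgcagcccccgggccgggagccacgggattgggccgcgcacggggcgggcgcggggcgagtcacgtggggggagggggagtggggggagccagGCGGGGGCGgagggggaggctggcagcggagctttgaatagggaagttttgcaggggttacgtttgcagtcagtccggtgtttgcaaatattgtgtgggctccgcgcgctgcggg
KLF4: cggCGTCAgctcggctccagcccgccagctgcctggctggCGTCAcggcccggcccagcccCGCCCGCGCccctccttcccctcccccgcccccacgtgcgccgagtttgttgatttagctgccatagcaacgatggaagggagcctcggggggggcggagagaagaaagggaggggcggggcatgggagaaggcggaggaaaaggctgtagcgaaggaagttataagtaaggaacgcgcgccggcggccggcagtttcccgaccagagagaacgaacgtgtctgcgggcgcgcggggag
KLF11: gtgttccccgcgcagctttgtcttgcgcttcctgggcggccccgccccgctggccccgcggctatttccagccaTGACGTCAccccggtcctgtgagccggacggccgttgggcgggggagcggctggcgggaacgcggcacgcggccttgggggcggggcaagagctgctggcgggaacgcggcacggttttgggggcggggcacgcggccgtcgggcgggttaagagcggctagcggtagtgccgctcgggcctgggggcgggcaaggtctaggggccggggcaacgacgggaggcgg

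GCGNGGGCG stands once in each of the KLF6 and KLF4 windows, beginning 65 and 189 bases before the start site, and 2 times in that of KLF2, and it overlaps GGGCGG where a G follows. Over all 35116 windows of this length 9.43% hold GCGNGGGCG. TGACG stands 2 times in the KLF4 window and once in the second KLF5 window and in that of KLF13, the flattest of the 10 genes. In the second KLF11 window TGACGTCA, which holds TGACG on each strand, begins 176 bases before the start site. Over all windows 24.6% hold TGACG and 1.85% TGACGTCA. The CArG box, the site of SRF, was found in 1 of the 13 windows, for KLF7, where 1.29% of all windows hold one. TGANTCA, the AP-1 site, was found in none, where 7.71% of all windows hold it. GGGCGG, the GC box that SP and Krüppel-like factors bind, had 2 matches in the KLF6, 4 in the KLF4, 6 in the KLF2 and 7 in this KLF11 window. It also stood in windows of KLF5, KLF7 and KLF13 and in the other KLF11 window, and 45.0% of all windows hold at least 1. GGGTG, which reads CACCC on the other strand, was found in windows of KLF5, KLF7, KLF11 and KLF13, where 59.9% of all windows hold it. No window of KLF3 or KLF10 was examined, so the counts of matches do not cover these genes. These matches describe letters in the windows and nothing about occupancy.

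The genes most like KLF6, KLF4 and KLF10 over the 8 arrays were taken as those with the smallest root mean square difference between profiles centred on their own means, among 1301 other genes whose group means spanned at least 0.5. Nearest to KLF6 were DUSP4, a MAP kinase phosphatase (difference 0.14), RNVU1-15, a U1 small nuclear RNA variant with near-identical copies (0.17), and ID3, a BMP-responsive inhibitor of helix-loop-helix factors (0.26). Nearest to KLF4 were RND3, a regulator of the actin cytoskeleton (0.15), the histone demethylase KDM7A (0.17) and the Notch target HES1 (0.22). Nearest to KLF10 were ZC3H12C, of a family of RNA-binding zinc-finger proteins (0.05), the repressor NFIL3 (0.07) and the small nucleolar RNA SNORD14C (0.09). NFIL3 changed with serum by 0.61 in shControl and 0.32 in shCDK8 cells, near the 0.64 and 0.26 of KLF10, and RND3 by 0.48 and 0.54, with a line difference of 1.40 in starved cells. Such closeness follows from choosing the genes by likeness on the same 8 arrays.

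**Figure D3:**
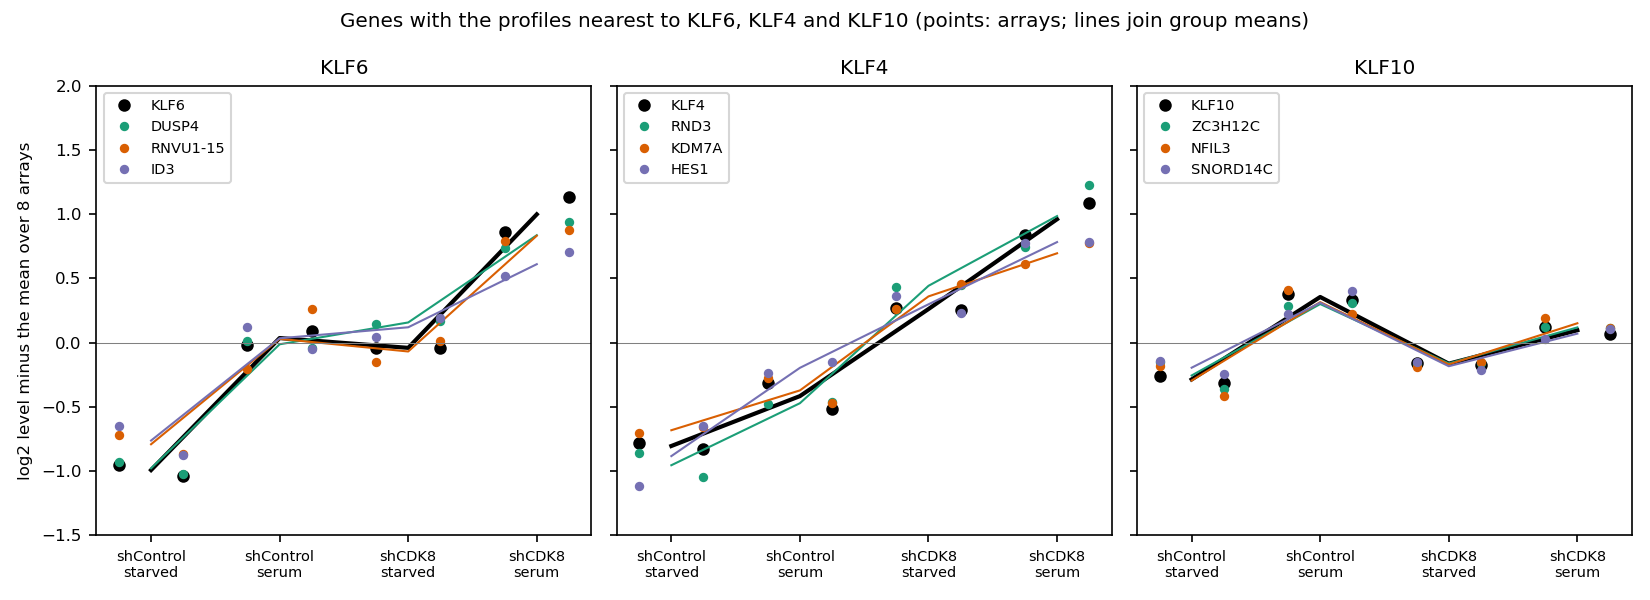
Log2 level minus each gene's mean over the 8 arrays (y axis) in the 4 groups (x axis) for KLF6, KLF4 and KLF10 and the 3 genes with the nearest profile to each; points are arrays and lines join group means. The middle groups stand level for KLF6, whereas DUSP4 and ID3 changed less with serum in shControl cells (0.97 and 0.80) than they differed between the starved lines (1.14 and 0.88). KLF4 and its neighbours climb over all 4 groups, and KLF10 and its neighbours peak in serum-treated shControl cells.

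The other Krüppel-like and SP genes were described from a list of 17, of which 15 were measured. None rose or fell with serum in limma's test in either line. At an unadjusted p below 0.05 there were 1 of 15 in shControl and 2 of 15 in shCDK8 cells, where 9.02% and 9.59% of all genes lay below it. The same shares of all genes apply to the unadjusted counts given for corepressors and turnover genes. Of all genes, 7.13% were higher and 6.28% lower in starved shCDK8 cells, and 7.7% and 6.54% after serum. Between the lines in starved cells KLF12, a CtBP-binding repressor, was higher (0.37 ± 0.10 SE, adjusted p = 0.0300) and SP4, a neuronal SP factor, was lower (-0.45 ± 0.08, adjusted p = 0.00441). After serum KLF12 was higher (0.38) and SP4 (-0.36) and KLF15, a metabolic regulator (-0.29), were lower. The list's median line difference was 0.03 in starved and -0.02 in serum-treated cells. In starved cells the call for KLF12 ended without any 1 of the 4 starved arrays (adjusted p up to 0.159). After serum the calls for KLF12, SP4 and KLF15 ended without serum array 1 of shControl or serum array 2 of shCDK8, those for SP4 and KLF15 also without serum array 2 of shControl, and that for KLF12 also without serum array 1 of shCDK8 and when the compared arrays were fitted alone (highest adjusted p 0.183).

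Of 14 measured serum and MAP kinase inputs, 4 rose with serum in each line and none fell. Of all genes, 0.424% rose in shControl and 0.25% in shCDK8 cells. The 4 inputs that rose were FOS (3.30 in shControl and 3.74 in shCDK8 cells), JUN (3.04 and 2.33), EGR1 (1.69 and 2.17) and SRF (0.62 and 0.55), all transcription factors of the early response. In starved cells 3 of the 14 were lower in the shCDK8 line and none was higher, where 6.28% and 7.13% of all genes were. MEF2C, an effector of ERK5, was lower by -1.65 ± 0.11 (adjusted p = 1.08e-05), FOS by -1.25 and EGR1 by -1.25, the opposite direction to KLF4 and KLF6. After serum 5 of the 14 were lower and 1 was higher, where 6.54% and 7.7% of all genes were. MEF2C stood at -1.65, FOS at -0.81, EGR1 at -0.77 and JUN at -0.52. The higher one was ELK3 (0.28 ± 0.07, adjusted p = 0.0332), in the direction of KLF4 and KLF6, and its alternatives were not run. Any link of these inputs to KLF4 or KLF6 was not tested. The rise of SRF in shControl cells ended without either starved array or serum array 2 of that line (adjusted p up to 0.114), and that in shCDK8 cells without any 1 of 6 arrays, the exceptions being the serum arrays of shControl, and in a fit of that line's arrays alone (up to 0.291). The call for JUN after serum ended without serum array 1 or 2 of shControl or serum array 1 of shCDK8 (up to 0.102).

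Of 13 measured corepressors and coactivators none passed with serum in limma's test, with 0 and 1 at an unadjusted p below 0.05 in shControl and shCDK8 cells. Between the lines 1 was higher and 1 lower in starved cells, where 7.13% and 6.28% of all genes were. The starved counts, 1 of 13 in each direction, were thus close to these shares. After serum 2 were higher and 2 lower, where 7.7% and 6.54% of all genes were. The deacetylase HDAC1 was lower in starved and serum-treated shCDK8 cells (-0.37 ± 0.06, adjusted p = 0.00376, and -0.41), and SIN3B, a paralog of the Sin3A scaffold, was higher (0.39 and 0.35). After serum the deacetylase HDAC3 was also lower (-0.29 ± 0.07, adjusted p = 0.0201) and the LIM-domain cofactor FHL3 also higher (0.26 ± 0.07, adjusted p = 0.0403). The starved call for SIN3B ended without starved array 2 of either line (adjusted p up to 0.0873). After serum neither SIN3B nor FHL3, the 2 higher genes, passed when any 1 of the 4 serum arrays was left out (up to 0.0935 and 0.217). The call for FHL3 also ended without either starved array of shControl, with median centring and when the compared arrays were fitted alone, and that for HDAC3 without either serum array of shControl or serum array 1 of shCDK8 (up to 0.137). Of 10 turnover genes none passed with serum (1 and 0 at an unadjusted p below 0.05). In starved shCDK8 cells 2 of the 10 were higher, where 7.13% of all genes were. These were the ubiquitin ligases SMURF2 (0.76 ± 0.06, adjusted p = 4.69e-05) and NEDD4L (0.43). After serum 2 of the 10 were higher and 1 was lower, where 7.7% and 6.54% of all genes were. SMURF2 and NEDD4L were again the higher ones (0.79 and 0.50), and the ubiquitin ligase STUB1 was lower (-0.35 ± 0.08, adjusted p = 0.0183). The call for STUB1 ended without serum array 2 of shControl or serum array 1 of shCDK8. The starved call for NEDD4L ended without starved array 1 of shControl or starved array 2 of shCDK8 (adjusted p up to 0.0628).

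Of 30 measured genes reported as Krüppel-like factor targets, ATF3 alone rose with serum within single lines, by 3.18 in shControl and 2.68 in shCDK8 cells. Of all genes, 0.424% rose in shControl and 0.25% in shCDK8 cells. In the average of both lines CEBPB rose as well, by 0.30 ± 0.05 (adjusted p = 0.0351), where 0.684% of all genes rose. In starved cells 5 of the 30 were higher and 4 lower in the shCDK8 line, where 7.13% and 6.28% of all genes were. PPARG, the adipogenic nuclear receptor, was higher by 1.83 ± 0.09 (adjusted p = 1.73e-06) and SMAD7, the inhibitor of TGF-beta signalling, by 0.92. The mitotic kinase CDK1 was lower by -0.74 and its cyclin CCNB1 by -0.52. After serum 5 were again higher and 4 lower, where 7.7% and 6.54% of all genes were. The largest differences were those of PPARG (1.76), SMAD7 (0.94), CDK1 (-0.69) and the TGF-beta receptor TGFBR2 (0.50). The list's median was 0.03 in starved and 0.05 in serum-treated cells. CDKN1A, the cell-cycle inhibitor known as a KLF4 and KLF6 target, was singled out after its values were seen. It was higher in starved shCDK8 cells by 0.45 ± 0.10 (adjusted p = 0.0146) and differed by 0.27 ± 0.10 after serum (adjusted p = 0.103). The first call ended without any 1 of the 4 starved arrays (adjusted p up to 0.0874), and the second difference passed with an intensity trend or without serum array 1 of shCDK8 (down to 0.0109).

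Some epithelial markers also differed between the lines. Of 10, 2 were higher and 1 lower in starved shCDK8 cells (KRT18 by 0.55, KRT8 by 0.44 and KRT19 by -0.31), where 7.13% and 6.28% of all genes were. After serum 3 were higher and 1 lower (KRT18 by 0.56, KRT8 by 0.42, the E-cadherin gene CDH1 by 0.26 and KRT19 by -0.34), where 7.7% and 6.54% of all genes were. The median line difference over the 10 markers was -0.03 in starved and -0.05 in serum-treated cells. The call for CDH1 ended without any 1 of the 4 serum arrays (adjusted p up to 0.109), and that for KRT19 without either starved array of shCDK8 or starved array 1 of shControl when starved (up to 0.0746) and without serum array 2 of shControl after serum (0.0518). The mean level of the 10 lay between 8.93 and 8.98 on the shControl arrays and between 8.98 and 9.05 on the shCDK8 arrays. Of 7 mesenchymal markers 1, ACTA2, was higher at each time (0.37 and 0.50), where 7.13% and 7.7% of all genes were. Its starved call ended without any 1 of the 4 starved arrays. Of 7 blood and endothelial markers none passed limma's test between the lines, with 0 at an unadjusted p below 0.05 at either time. Of all 18417 genes, 4654 lay below it in starved and 4806 in serum-treated cells. The part of these markers in the line differences of the Krüppel-like factors was not tested.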

How the data were processed

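RNA of 8 HCT116 samples was hybridised to 1 array each, and the labels gave the groups. The values the authors deposited were on the log2 scale, probe set summaries from RMA per the submitters' processing notes. The RMA version, the build and whether normalization was joint are not stated in what was used here. Of 33297 probe sets, 19460 were paired with 1 gene, and the one with the highest mean stood for each gene, leaving 18417 genes without a filter.

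Group means of all 8 arrays were fitted with limma 3.58.1 in R 4.3.3 (4 residual and 5.49 prior degrees of freedom). P-values were two-sided and Benjamini-Hochberg adjusted over all genes per contrast. Errors of changes are model SEs. The genes, lists and tests were chosen with earlier results of these data known. Named were all 10 genes, up to 4 called genes per list by size of change in each serum and line comparison, and the 3 nearest profiles. The CDK8 probe set was fitted among probe sets without a single gene. Alternatives were an intensity trend, fitting only the compared arrays, a block on the replicate number, dropping genes in the lowest 25% by mean, cyclic loess, median centring, averaging of probe sets and omitting single arrays. The fit was tested on simulated data.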

Additional observations from a re-analysis of the deposited data

Results flagged for a closer look

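KLF10 was marked because its line difference had opposite directions at the 2 times. Both starved shCDK8 arrays lay above both starved shControl arrays, by 0.12 on average, and both serum-treated shCDK8 arrays lay below both serum-treated shControl arrays, by -0.26. Of all genes, 24.4% had the shCDK8 arrays above in starved cells, and 28% had them below after serum. The share of all genes that met both conditions was not counted, so how common this placement is was not tested. The difference between the lines' responses was -0.38 on the log2 scale (unadjusted p = 0.00194, adjusted p = 0.910 in limma's test), so it did not pass over all genes. Over its 14 alternatives the value stayed between -0.41 and -0.35 and the adjusted p between 0.116 and 1.00. Groups of 2 arrays are too small for a check of single arrays that stand apart.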

How the results depend on the processing

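All values rest on duplicate arrays. The count of Krüppel-like genes past the threshold stayed within 1.5 times its reported value under all alternatives in the serum comparison of shControl cells, the line comparison in starved cells, the difference of responses and both averaged comparisons. With serum in shCDK8 cells the count of 2 was 1 in a fit of that line's arrays alone and from 1 to 2 when single arrays were left out. In the line comparison after serum the count of 4 was from 2 to 5 when single arrays were left out, and the gene lost or gained is named with its result. Of 1020 values of single genes under alternatives, 15 lost and 16 gained the threshold, and 18 changed sign, all of genes that did not pass before or after. Among the 51 calls of listed and marker genes, whose alternatives were added after the data were seen, 33 held under all alternatives and 18 were lost under at least 1.

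Replicate numbers are shared by the groups, but the labels do not say that a number marks a shared culture. Deviations of same-numbered arrays correlated between groups at -0.186 to 0.126, so the numbers were not taken as pairs. With the replicate block the count in the line comparison after serum was 6 in place of 4, through KLF5 (adjusted p = 0.0477) and KLF11 (0.0447), and it was 2 with serum in each line and 3 in the line comparison of starved cells. All 10 genes lay above the 25th percentile of mean level.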
